A study of Mus musculus with 2 samples.

Results

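A set of 10 genes that carry peptides and amino acids across the intestinal epithelium was followed: Slc15a1, Slc6a19, Slc7a9, Slc7a7, Slc7a8, Slc3a1, Slc3a2, Slc7a5, Slc1a5 and Slc1a1. They were chosen by symbol, and all 10 were found among the 17219 genes of the deposited table. The study set FABP4fl/fl mice carrying a villin-driven Cre transgene, which acts in intestinal epithelial cells, beside FABP4fl/fl mice without it. The first are called F4KO and the second WT. The genotype label of the F4KO sample reads FABP4 knockdown, while its title and the design text speak of a knockout. FABP4 is a fatty acid binding protein, and the floxed allele was shared by both groups. The labels describe 2 samples, 1 WT and 1 F4KO, both of crypts grown as organoids in Matrigel with IntestiCult medium to day 6. The table also holds a comparison of libraries that its headers name WTEpi and F4KOEpi. The labels describe neither, so their tissue, age and preparation are not known here, and they are called the Epi libraries. Each comparison set 1 library against 1 library, so nothing below measures the spread between animals or cultures.

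Enterocytes take up dipeptides and tripeptides with protons through Slc15a1 (PEPT1) and free amino acids through carriers of differing selectivity. Several carriers work as pairs: a light chain moves the amino acid, and a heavy chain, Slc3a1 (rBAT) or Slc3a2 (CD98hc, 4F2hc), brings it to the membrane. Brush border uptake is typical of the absorptive villus cell, whereas Slc7a5 (LAT1) and Slc1a5 (ASCT2) are known for supplying dividing cells.

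Sequence upstream of the start was available for 8 of the 10 genes in the RefSeq table of build GRCm38.p6, as windows of 300 bases that run across an annotated start. Those printed for Slc6a19 and Slc7a7 lie inside the span of the gene, so they belong to a start other than the outermost. The 5 windows printed belong to 4 genes that were lower in F4KOEpi and to Slc1a1, which was higher there. Capitals mark matches on either strand to TTTATG (CDX2), GTTAAT (HNF1), CAAAGTNCA (HNF4) or TGATGNAA (ATF4). Slc7a7 had 5 annotated windows, of which the first is shown.
Slc15a1 (chr14:121505205-121505504, minus strand): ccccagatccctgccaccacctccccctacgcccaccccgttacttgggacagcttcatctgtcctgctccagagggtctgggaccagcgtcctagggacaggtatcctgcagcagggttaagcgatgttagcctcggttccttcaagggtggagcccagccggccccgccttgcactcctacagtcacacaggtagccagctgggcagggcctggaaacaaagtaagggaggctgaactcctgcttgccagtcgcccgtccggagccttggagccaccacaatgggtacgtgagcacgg
Slc6a19 (chr13:73692587-73692886, minus strand): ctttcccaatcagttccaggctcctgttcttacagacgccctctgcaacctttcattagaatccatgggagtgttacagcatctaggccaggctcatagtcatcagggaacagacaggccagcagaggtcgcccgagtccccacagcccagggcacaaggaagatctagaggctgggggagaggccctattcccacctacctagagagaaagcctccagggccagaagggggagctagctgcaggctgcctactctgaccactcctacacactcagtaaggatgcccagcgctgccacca
Slc3a1 (chr17:85028097-85028396, plus strand): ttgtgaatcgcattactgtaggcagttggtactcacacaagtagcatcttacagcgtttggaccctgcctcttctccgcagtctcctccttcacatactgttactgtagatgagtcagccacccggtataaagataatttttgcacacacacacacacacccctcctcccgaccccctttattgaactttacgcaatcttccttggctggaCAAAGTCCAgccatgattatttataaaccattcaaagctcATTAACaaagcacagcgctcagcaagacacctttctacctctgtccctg
Slc7a7 (chr14:54417895-54418194, minus strand): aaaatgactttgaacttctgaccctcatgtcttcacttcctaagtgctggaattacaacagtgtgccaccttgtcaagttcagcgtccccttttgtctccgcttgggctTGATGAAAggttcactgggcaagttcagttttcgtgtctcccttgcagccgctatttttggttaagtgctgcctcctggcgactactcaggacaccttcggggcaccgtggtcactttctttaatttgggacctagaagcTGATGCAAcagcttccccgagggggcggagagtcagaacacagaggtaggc
Slc1a1 (chr19:28834885-28835184, plus strand): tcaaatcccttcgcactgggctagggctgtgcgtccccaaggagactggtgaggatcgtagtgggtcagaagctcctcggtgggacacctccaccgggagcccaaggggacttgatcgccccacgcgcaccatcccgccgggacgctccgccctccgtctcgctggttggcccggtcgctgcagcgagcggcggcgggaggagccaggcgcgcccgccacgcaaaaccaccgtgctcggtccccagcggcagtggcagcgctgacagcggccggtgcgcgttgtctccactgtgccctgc
The Slc3a1 window held 1 HNF4 match and 1 HNF1 match, and the Slc7a7 window held 2 ATF4 matches. Of the other 4 Slc7a7 windows, 1 held 1 ATF4 match, in bases it shares with the window shown, 1 held an HNF1 match and 2 held none. The windows of Slc15a1, Slc6a19 and Slc1a1 held none of the 4 motifs. Those of Slc7a9, Slc7a8 and Slc3a2, which are not printed, held none either. Of all 32851 promoter windows, 1.41% held the HNF4 motif, 7.1% the HNF1 motif, 3.97% the ATF4 motif and 11.9% the CDX2 motif. The matches and blanks describe these letters only.

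The deposited tables give fold changes and p-values, from which the level and the number of reads in each library were worked back. A level is per transcript length and library depth, in steps of 0.01. The libraries held an estimated 16.31 M (WT) and 16.18 M (F4KO) reads for organoids, and 18.22 M (WTEpi) and 14.81 M (F4KOEpi) for Epi, M standing for 1e6 reads. Intervals below are exact Clopper-Pearson 95% intervals of the read ratio, F4KO over WT, and cover counting error only. The targeted gene, Fabp4, had 1 read in WT and 0 in F4KO organoids, and 1 in WTEpi and 4 in F4KOEpi, too few to check the labels. In the authors' deposited table the Y-linked genes Eif2s3y, Ddx3y, Kdm5d and Uty had log2 fold changes of 9.53, 8.24, 8.11 and 2.96 between the organoid libraries, and of -0.02, 0.57, 0.30 and 0.53 between the Epi libraries, so the sex of the source and the genotype cannot be told apart in the organoids.

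The 10 genes were arranged differently in organoids and in the Epi libraries. In WT organoids the highest level was that of Slc3a2 (83.42), followed by Slc1a5 (55.12), Slc3a1 (37.78) and Slc7a7 (27.87). In WTEpi the highest was Slc6a19 (310.30), followed by Slc7a9 (261.65), Slc15a1 (233.37) and Slc7a7 (229.52). Of the 10 genes, 7 had a level of at least 100 in each Epi library, and 0 of 10 did in either organoid library. Neighbours in the order can lie close together: Slc15a1 and Slc7a7 were 1.02 times apart in WTEpi. There is no replicate spread to set such gaps against.

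**Figure D1:**
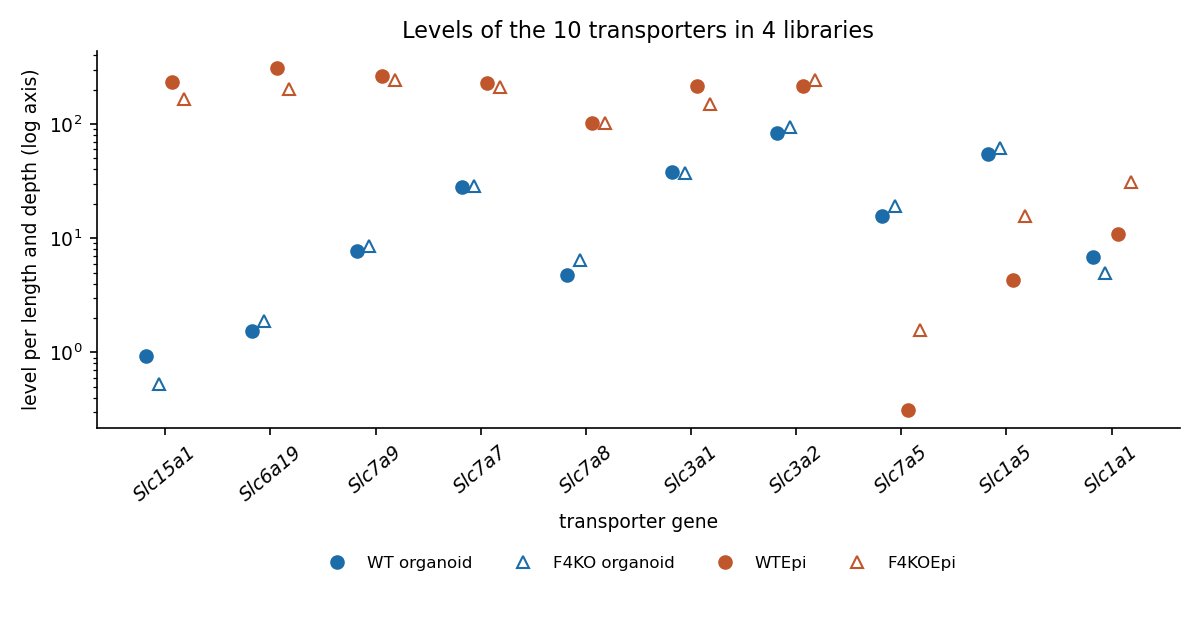
Levels per length and depth (log axis) of the 10 transporters in 4 single libraries, organoids in blue and Epi in orange, WT as filled circles and F4KO as open triangles. Slc15a1 and Slc6a19 lie at 0.53 to 1.87 in organoids and at 165.89 to 310.30 in the Epi libraries, while Slc7a5 and Slc1a5 lie higher in organoids.

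The gap between the settings was widest for Slc15a1 and Slc6a19. Slc15a1, the proton-coupled peptide carrier, was 254 times higher in WTEpi than in WT organoids, and Slc6a19 (B0AT1), the main carrier of neutral amino acids, 200 times higher. Slc7a9 (b0,+AT), the light chain that takes up cystine and cationic amino acids, was 33.8 times higher, and its heavy chain Slc3a1 5.65 times higher. Of the basolateral light chains, Slc7a8 (LAT2) was 21.2 times higher and Slc7a7 (y+LAT1) 8.24 times higher. The heavy chain Slc3a2 was 2.58 times higher, and Slc1a1 1.59 times. Slc7a5 and Slc1a5 went the other way, being 50.6 and 12.8 times higher in WT organoids than in WTEpi. These are ratios of levels between single libraries, with no test.

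For Slc15a1 the organoid libraries held 47 reads in WT and 27 in F4KO, at levels of 0.92 and 0.53. The Epi libraries held 13425 reads in WTEpi and 7757 in F4KOEpi, at levels of 233.37 and 165.89. F4KO was the lower library in both settings. The read ratio was 0.579 (0.347 to 0.949) in organoids and 0.711 (0.691 to 0.731) in Epi. In the authors' deposited table the false discovery rate (FDR) was 0.101 for organoids and 4.75e-128 for Epi. An FDR of 0.001 or less is the threshold used here, and only the Epi comparison passed it.

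Slc6a19 had levels of 1.55 and 1.87 in WT and F4KO organoids, from 97 and 119 reads. Its level was 310.30 in WTEpi and 200.67 in F4KOEpi. F4KO was thus slightly above WT in organoids and below it in Epi. The organoid read ratio was 1.24 (0.938 to 1.63), an interval that includes no difference. The WTEpi level was 1.55 times the F4KOEpi level, and the authors' deposited table lists the FDR of this comparison as 0. The Epi reads, about 21900 and 11300, were estimated from level and length because the p-value is listed as 0. By transcript, NM_028878.4 went from 247.85 to 118.85 between WTEpi and F4KOEpi and NM_001359603.1 from 62.45 to 81.82. In organoids each went the other way. There NM_028878.4 went from 0.88 to 1.59 (56 and 102 reads) and NM_001359603.1 from 0.68 to 0.28 (40 and 16 reads). The split of reads between these transcripts is estimated and uncertain.

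Cltrn (collectrin), a partner protein of Slc6a19 in the kidney, had 21 and 17 reads in organoids and 0 and 1 in Epi, too few for a comparison in Epi.

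The pair Slc7a9 and Slc3a1 did not keep one ratio. Slc7a9 had levels of 7.75 and 8.51 in WT and F4KO organoids and of 261.65 and 244.50 in WTEpi and F4KOEpi. Slc3a1 had 37.78 and 37.39 in organoids and 213.29 and 151.25 in Epi. The organoid libraries held 212 and 236 reads of Slc7a9 and 1423 and 1397 of Slc3a1. The Epi libraries held 8089 and 6065 reads of Slc7a9 and 9004 and 5190 of Slc3a1. In organoids the read ratio was 1.12 (0.928 to 1.36) for Slc7a9 and 0.99 (0.919 to 1.07) for Slc3a1, and neither passed. In Epi it was 0.922 (0.892 to 0.954) for Slc7a9 and 0.709 (0.685 to 0.734) for Slc3a1. Both passed there, the authors' deposited table giving FDRs of 6.79e-06 and 3.41e-87. The Slc7a9 level was 0.205 and 0.228 of the Slc3a1 level in WT and F4KO organoids, but 1.23 and 1.62 times it in WTEpi and F4KOEpi.

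Of the 2 basolateral light chains, 1 passed, and in Epi only. Slc7a7, which exports cationic amino acids, had levels of 27.87 and 28.39 in organoids (842 and 849 reads, each within a few reads) and 229.52 and 209.99 in Epi (7721 and 5455 reads). Its read ratio was 1.02 (0.923 to 1.12) in organoids and 0.869 (0.839 to 0.9) in Epi. The Epi comparison alone passed, at 1.37e-14 by the FDR of the authors' deposited table. Slc7a8, an exchanger of neutral amino acids, had levels of 4.79 and 6.48 in organoids (271 and 344 reads) and 101.68 and 102.74 in Epi (6292 and 4978 reads). Its read ratio was 1.28 (1.09 to 1.51) in organoids and 0.973 (0.938 to 1.01) in Epi. Neither passed, the authors' deposited table giving FDRs of 0.0174 and 0.238.

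Slc3a2, the heavy chain of Slc7a5, Slc7a7 and Slc7a8, had levels of 83.42 and 93.50 in WT and F4KO organoids, from 2808 and 3265 reads. In WTEpi and F4KOEpi the levels were 215.23 and 241.95, from 8358 and 7057 reads. F4KO was above WT by level in both settings. The read ratio was 1.17 (1.11 to 1.23) in organoids and 1.04 (1.01 to 1.07) in Epi. By the FDR of the authors' deposited table the organoid comparison passed, at 2.19e-08, and the Epi comparison did not, at 0.036. The Epi levels of its transcripts ran apart: NM_008577.4 went from 127.44 to 108.72 and XM_006526733.3 from 82.90 to 125.91. Reads that several transcripts share are split by estimation, so such splits are uncertain.

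The levels of Slc7a5, Slc7a7 and Slc7a8 were summed, with any other light chains left out. That sum was 0.579 and 0.578 of the Slc3a2 level in WT and F4KO organoids. In WTEpi and F4KOEpi it was 1.54 and 1.3 times the Slc3a2 level. Slc7a5 made up 32.4% and 35.5% of that sum in organoids and 0.0935% and 0.503% in Epi. Slc7a7 made up the most in all 4 libraries, from 52.5% in F4KO organoids to 69.2% in WTEpi.

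**Figure D2:**
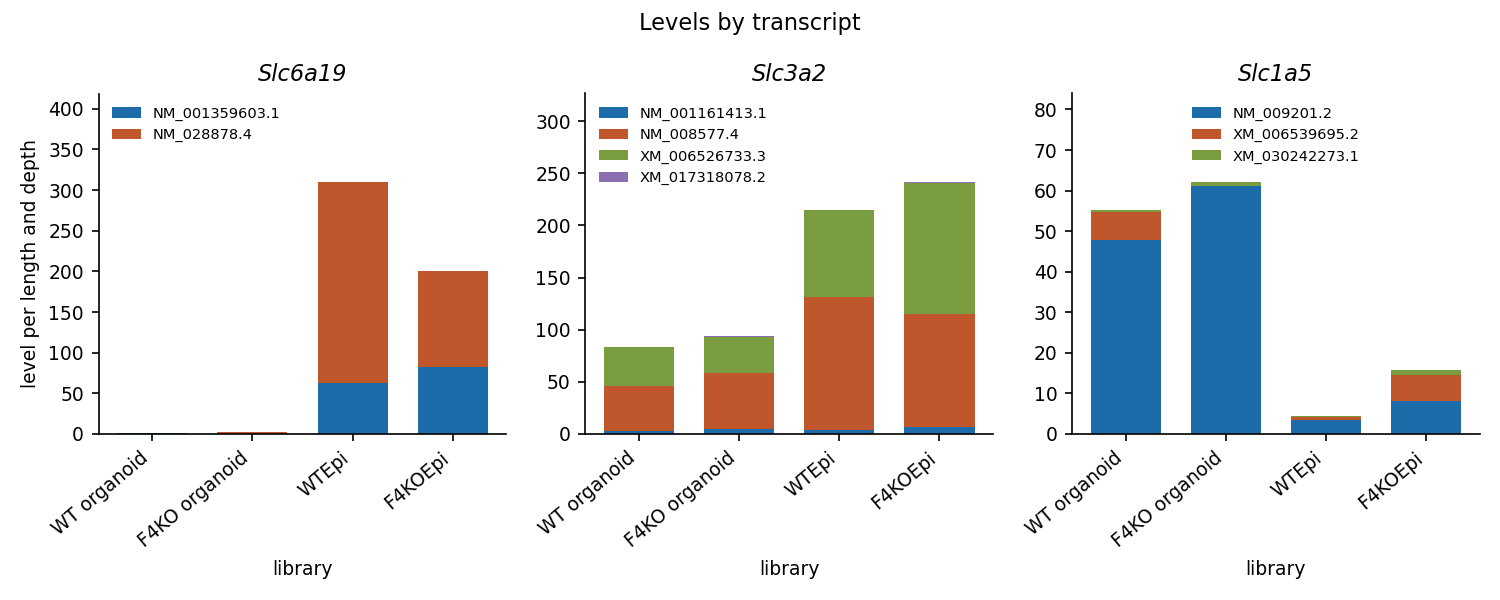
Levels of Slc6a19, Slc3a2 and Slc1a5 in 4 single libraries as bars stacked by annotated transcript, each panel with its own linear axis from 0. NM_028878.4 of Slc6a19 is the part that is smaller in F4KOEpi (118.85) than in WTEpi (247.85).

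Slc7a5, which brings large neutral amino acids such as leucine into cells, had levels of 15.68 and 19.21 in WT and F4KO organoids, from 907 and 1102 reads. In WTEpi and F4KOEpi it had 0.31 and 1.58, from 19 and 83 reads. F4KO was the higher library in both settings. The read ratio was 1.22 (1.12 to 1.34) in organoids and 5.37 (3.24 to 9.37) in Epi. Both passed, the authors' deposited table giving FDRs of 9.99e-05 and 2.76e-13. The F4KO organoid level was still 12.2 times that of F4KOEpi.

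Slc1a5, the glutamine carrier, had levels of 55.12 and 62.17 in organoids (2472 and 2791 reads) and of 4.29 and 15.68 in Epi (214 and 629 reads). It too was higher in F4KO in both settings. The read ratio was 1.14 (1.08 to 1.2) in organoids and 3.62 (3.09 to 4.24) in Epi. The FDRs in the authors' deposited table were 5.13e-05 and 1.71e-67, and both comparisons passed. The transcript XM_006539695.2 had 286 reads in WT organoids and 0 in F4KO organoids, whereas it had 43 in WTEpi and 242 in F4KOEpi. The transcript NM_009201.2 went from 2163 to 2744 reads in organoids and from 170 to 336 in Epi. Here too the split of reads between transcripts is estimated and uncertain.

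Slc1a1 (EAAC1), a carrier of glutamate and aspartate, was the gene that passed in opposite directions. Its levels were 6.84 and 4.96 in WT and F4KO organoids, from 421 and 303 reads, and 10.86 and 30.86 in WTEpi and F4KOEpi, from 750 and 1732 reads. The read ratio was 0.725 (0.624 to 0.843) in organoids and 2.84 (2.61 to 3.1) in Epi. The FDRs in the authors' deposited table were 0.000277 and 4.29e-137. For Slc1a1 the counting intervals of the 2 settings did not overlap. How often such intervals lie apart over all genes was not worked out. The difference between settings was not tested, since each rests on 1 library a side.

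**Figure D3:**
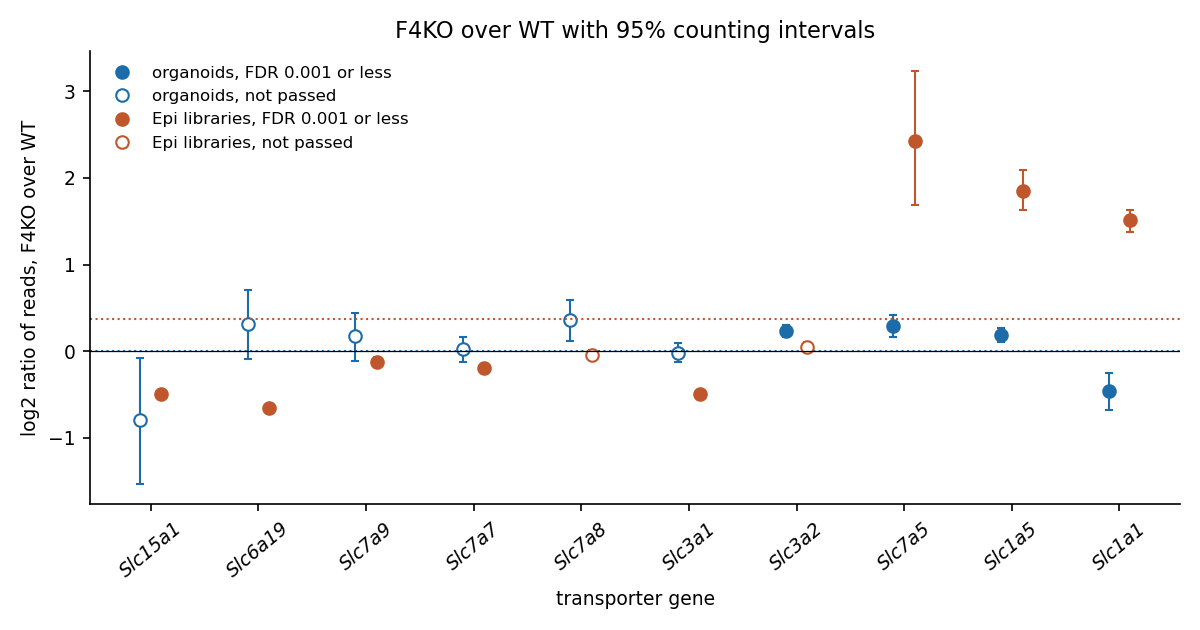
Log2 ratio of reads, F4KO over WT, for the 10 transporters in organoids (blue) and Epi libraries (orange), with bars for 95% counting intervals, filled where the deposited FDR is 0.001 or less, and dotted lines at the median deposited log2 fold change of all genes. Slc7a5, Slc1a5 and Slc1a1 stand highest in Epi at 2.43, 1.85 and 1.51, and Slc1a1 is at -0.46 in organoids.

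By the authors' deposited table, 3 of the 10 transporters were higher in F4KO organoids (Slc3a2, Slc7a5, Slc1a5) and 1 lower (Slc1a1), where 7.79% of 15845 genes passed in either direction, 3.09% higher and 4.7% lower. In Epi, 3 were higher (Slc7a5, Slc1a5, Slc1a1) and 5 lower (Slc15a1, Slc6a19, Slc7a9, Slc7a7, Slc3a1), where 38.5% of 16336 genes passed, 30.6% higher and 7.92% lower. The deposited log2 fold changes of the 10 had a median of 0.15 in organoids, beside 0.00 for all genes, and of -0.04 in Epi, beside 0.377 for all genes. Relative to that Epi median, the 5 lower genes lay from -0.47 (Slc7a9) to -1.01 (Slc6a19), the 3 higher ones remained above it at 1.13 to 1.97, and Slc3a2 turned from 0.17 to -0.21. With a fold of at least 1.5 asked as well, 0 of the 10 were higher and 0 lower in organoids, beside 0.271% and 0.94% of all genes. In Epi that rule left 3 higher and 1 lower (Slc6a19), beside 20% and 2.51%. With a fold of at least 2 the counts were 0 and 0 in organoids, beside 0.107% and 0.24%, and 3 and 0 in Epi, beside 11.1% and 0.979%. With the FDR limit on the authors' deposited table loosened to 0.05, 4 were higher and 1 lower in organoids, beside 7.52% and 10.2%, and 4 and 5 in Epi, beside 43.2% and 10.4%.

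Of 29 genes listed as wider amino acid and peptide transporters, 25 had a fold change in organoids and 28 in Epi. In the authors' deposited table, 0 were higher and 1 lower in F4KO organoids, beside 3.09% and 4.7% of all genes. The lower one was Slc38a1, a glutamine carrier, at a log2 fold change of -0.20. In Epi, 8 were higher and 7 lower, beside 30.6% and 7.92% of all genes, and the median of 0.34 lay at -0.04 relative to all genes. By the authors' deposited table, Slc1a4, a carrier of small neutral amino acids, was higher at 1.64, and Slc38a3, Slc6a18 and Slc43a3 were lower at -1.95, -1.66 and -1.58. Their reads in WTEpi and F4KOEpi were few: 18 and 46 (Slc1a4), 38 and 8 (Slc38a3), 48 and 12 (Slc6a18), 75 and 20 (Slc43a3). Nearest to the median pair of the 10, over 24 genes and 2 comparisons, were Slc38a10, Slc36a1 and Slc16a10, at distances of 0.0846, 0.156 and 0.177 on the log2 scale.

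Among 13 measured partners and brush border peptidases, 4 were lower and 0 higher in F4KO organoids, beside 4.7% and 3.09% of all genes. Among the lower ones in the authors' deposited table were Mep1b (-0.90), Dpp4 (-0.38) and Anpep (-0.15), which cut peptides at the cell surface. In Epi, 8 were lower and 1 higher, beside 7.92% and 30.6% of all genes. The median there was -0.09, or -0.46 relative to all genes. Among the lower ones in the authors' deposited table were Pdzk1, a scaffold of membrane carriers, at -0.67, Slc9a3r1, another scaffold, at -0.50, and Ggt1, which cleaves glutathione, at -0.36.

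ATF4 is the transcription factor that answers amino acid shortage, and Slc7a5, Slc3a2 and Slc1a5 are among the genes it is known to switch on. Of 18 genes listed as ATF4 targets, Atf4 itself among them, 8 were higher and 0 lower in F4KO organoids, beside 3.09% and 4.7% of all genes. Their median log2 fold change was 0.16. In the authors' deposited table Atf5 was at 0.59, Trib3 at 0.44, Cebpb at 0.37 and Shmt2 at 0.20. In Epi, 9 were higher and 1 lower, beside 30.6% and 7.92% of all genes. The median there was 0.91, which is 0.53 above that of all genes. By the authors' deposited table Chac1 was at 1.96, Asns at 1.54, Psat1 at 1.37 and Pck2 at 1.34 there, while Trib3 was the lower one. The part of ATF4 in the transporter values was not tested.

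Cell type markers differed too, and not in the same way in the 2 settings. In Epi, 14 of 14 enterocyte markers were lower (median log2 fold change -0.61, or -0.99 relative to all genes) and 8 of 11 crypt and proliferation markers higher (median 1.54, or 1.17 relative to all genes). Of all genes in Epi, 7.92% were lower and 30.6% higher. In the authors' deposited table Apoa4 was at -1.30, Fabp1 at -1.16, Ccnb1 at 1.80 and Mki67 at 1.71. In organoids, 6 of 14 enterocyte markers were higher and 1 lower, while 7 of 11 crypt and proliferation markers were lower and 1 higher. Of all genes in organoids, 3.09% were higher and 4.7% lower. By the authors' deposited table Top2a was at -0.60 and Apoa4 at 0.37 there. Slc7a5 and Slc1a5 were higher in F4KO in both settings, and whether this relates to the proliferation markers was not tested. Of 12 secretory markers, 5 were higher and 0 lower in organoids, and 9 higher and 1 lower in Epi. Their median was 0.09 in organoids and 0.52 in Epi, or 0.09 and 0.14 relative to all genes. In such bulk samples, fewer cells of a type and less RNA per cell cannot be told apart, and the part of cell makeup in the transporter values was not tested.

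Markers of other cell types were rare in organoids, where 2 of the 9 with known reads were at 0 in WT and 1 in F4KO. Cd74, of antigen presentation, was the most abundant, with levels of 1.93 and 1.75 in organoids and of 1380.50 and 793.88 in WTEpi and F4KOEpi, and its Epi reads were not recovered. Without Cd74, 8 markers summed to 0.981 and 1.3 per 1e6 reads in organoids, and 15 to 58.6 and 74.7 in WTEpi and F4KOEpi. Pdgfra and Kdr were at 0 in WTEpi. The muscle genes Acta2, Des and Myh11 rose from 3, 5 and 4 reads to 61, 52 and 42, and Col1a1 of fibroblasts from 4 to 33, all passing in the authors' deposited table. Of the 16 listed, 5 passed as higher and 1, Cd74, as lower in Epi, beside 30.6% and 7.92% of all genes. In organoids, 0 of 10 with a fold change passed, beside 7.79% of all genes. Which cells the Cd74 RNA came from was not determined. The 5 markers of immune cells did not pass in Epi, with log2 fold changes in the authors' deposited table of 0.06 (Ptprc), 0.37 (Cd3e), 0.38 (Cd3g), -0.27 (Cd8a) and -1.34 (Cd79a). The part of these cells in the transporter values was not tested.

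**Figure D4:**
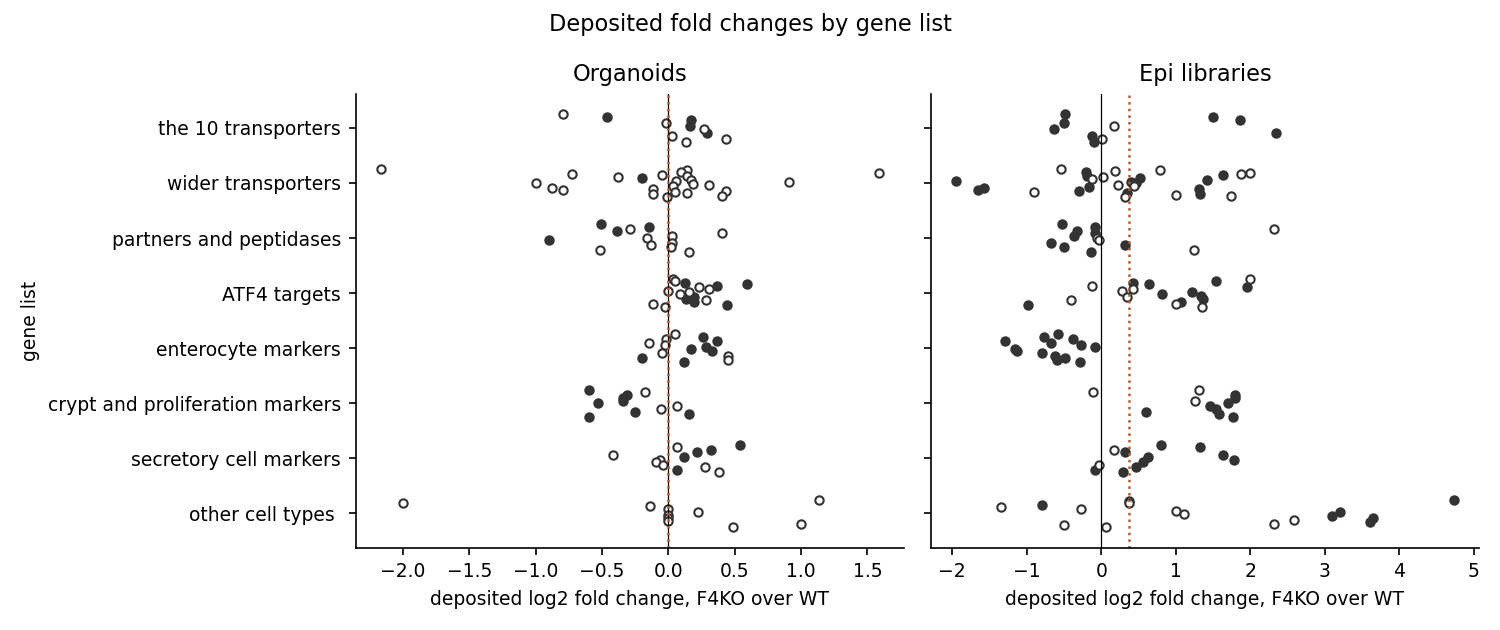
Deposited log2 fold changes, F4KO over WT, of the 10 transporters and 7 gene lists in organoids (left) and Epi libraries (right), each point a gene, filled where the deposited FDR is 0.001 or less, with the dotted line at the median of all genes. All 14 enterocyte markers lie below 0 in Epi, and 7 of 11 crypt and proliferation markers pass as lower in organoids, beside 4.7% of all genes.

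By GRCm38.p6 the genes lie at chr14:121459621-121505254 (Slc15a1), chr13:73679745-73700780 (Slc6a19), chr7:35448727-35466034 (Slc7a9), chr14:54369442-54420068 (Slc7a7), chr14:54722215-54781886 (Slc7a8), chr17:85028347-85064241 (Slc3a1), chr19:8706882-8723369 (Slc3a2), chr8:121881146-121907686 (Slc7a5), chr7:16781334-16798274 (Slc1a5) and chr19:28835135-28913960 (Slc1a1).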

How the data were processed

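Per the labels' protocols, RNA of day 6 organoids was made into libraries with a SMARTER mRNA-Seq kit. The submitters' processing notes list GRCm38 and mm10 as builds, with aligner and quantifier not given in the sources used here. For genes and for transcripts, the authors deposited log2 fold changes (F4KO over WT, per the file headers), p-values from a Poisson-type test, and an FDR for each.

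The read numbers and levels were recovered from these values, a step chosen after the tables were opened. The deposited p-value matched the two-sided Audic-Claverie test of 2 whole read numbers, and the antilog of the deposited log2 fold change a ratio of levels in steps of 0.01. Pairs had to meet the p-value within a relative 6e-06, and transcripts had to sum to the gene. Each of the 10 transporters had 1 solution, and 0 of 10 had one when p-values were shifted by 0.03%. Slc3a2 and transcripts with no annotated length were solved without it. Lengths implied by the reads differed by at most 0.89% between comparisons in the 13 better covered transcripts. Among the other 112 list genes, 46 had a level. Depth was estimated from annotated lengths (GENCODE M21).

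No test could be run with 1 library a side. Genes were counted by the deposited FDR of 0.001 or less, which compares libraries, not genotypes, and covers counting error only. Alternatives were an FDR of 0.05, a fold of 1.5 or 2, transcripts, centring on all genes and read ratios. Genes named outside the 10 were, for each list and comparison, up to 4 with the largest deposited change that passed, plus Cltrn, less 1 gene that is not reported here; the 3 wider transporters nearest to the median pair were named by that distance, and Trib3 in Epi, the immune markers, Pdgfra, Kdr, Fabp4 and the Y-linked genes were added after their values were seen. The members and lists were chosen with earlier results of these data known. Python 3.11.15, numpy 2.4.6, pandas 2.3.3, scipy 1.17.1 and matplotlib 3.10.9 were used.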

Additional observations from a re-analysis of the deposited data

Results flagged for a closer look

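Slc1a1 passed the deposited FDR in both comparisons with opposite signs, at a deposited log2 fold change of -0.46 between the organoid libraries and of 1.51 between the Epi libraries. The difference was not tested, because each comparison holds 1 library a side.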

How the results depend on the processing

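No paired analysis was possible because each group has 1 library, and for the same reason no replicate could be left out. In organoids, 3 transporters were higher and 1 lower, beside 3.09% and 4.7% of all genes. With a fold of at least 1.5, or of at least 2, both counts were 0. By the transcript with the smallest p-value the counts were 6 and 2. That rule picks the best of a gene's transcripts, which favours passing. Its share over all genes was not worked out, so these counts have nothing to be set against. In Epi, 5 were lower, with 1 at a fold of at least 1.5 and 0 at a fold of at least 2. By the same rules 7.92%, 2.51% and 0.979% of all genes were lower. The higher transporters numbered 3 by each of these rules, beside 30.6%, 20% and 11.1% of all genes. At a deposited FDR of 0.05 in organoids, 2 of the wider transporters were lower and 3 higher. At that limit 1 partner or peptidase and 13 of the ATF4 list were higher. Of all genes, 10.2% were lower and 7.52% higher. Read ratios and centring on all genes reversed no transporter that passed. Of 20 deposited values, 3 moved by more than their counting error with read ratios and 9 with centring. The cause was not tested. Depth limits Slc15a1 and Slc6a19 in organoids and Slc7a5 in Epi, which rest on 19 to 119 reads a library.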
